A study of Mus musculus with 6 samples.

Results

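The genes described here make up the machinery that shortens the poly(A) tails of the egg's stored mRNA in mouse zygotes, together with factors that direct it to its targets. All 10 were chosen by name, not by a measured value: Btg4, Cnot1, Cnot6, Cnot6l, Cnot7, Cnot8, Pan2, Pan3, Zfp36l2 and Parn. Earlier results of these data were known when these genes were chosen. Each was found in the gene table, which held 36065 genes, and all 10 were among the 12249 genes that reached an abundance of at least 1 in at least 2 libraries. Polyadenylated RNA was sequenced from 1-cell embryos of genotype WT held in culture, in 3 groups of 2 libraries. CBR+SAM embryos received CBR-5884 and S-adenosylmethionine (SAM), CBR embryos received CBR-5884 alone, and DMSO embryos received the solvent. CBR-5884 inhibits serine metabolism, a source of the carbon units from which cells regenerate SAM, and SAM is the methyl donor. Strain, dose, time of collection and number of embryos per library are not given in the sources used here. No group received SAM without the inhibitor.

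A zygote starts with mRNA made by the oocyte, and much of it is destroyed around genome activation. The first step is deadenylation, in which nucleases remove the poly(A) tail that protects an mRNA and helps it to be translated. A pair of machines does most of this work in mammals. PAN2 and PAN3 trim long tails, and the CCR4-NOT complex, built on the scaffold CNOT1, removes the rest with one nuclease of the CNOT7/CNOT8 pair and one of the CNOT6/CNOT6L pair. BTG4 has no nuclease activity and brings CCR4-NOT to maternal mRNA in the mouse egg, while ZFP36L2 brings it to mRNA with AU-rich elements. PARN is a separate deadenylase that prefers capped RNA and also matures small noncoding RNAs.

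The CNOT7 and CNOT8 nucleases are close paralogs, and a stretch of their coding sequences shows how far they nevertheless differ. The stretches below run from codon 33 to codon 52 of each gene, with the codons of the catalytic aspartate (40) and glutamate (42) in capitals.
Cnot7: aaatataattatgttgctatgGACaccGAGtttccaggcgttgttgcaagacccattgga
Cnot8: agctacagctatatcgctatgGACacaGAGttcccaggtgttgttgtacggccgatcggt
Both catalytic codons were the same, but 16 of the 60 bases differed. Over the whole coding sequence Cnot7 and Cnot8 were identical at 71.5% of aligned bases and Cnot6l and Cnot6 at 73.3%. The longest identical run was 20 bases in each pair, and neither pair shared a word of 31 bases.

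Stored oocyte mRNAs are often held with short tails and extended later through a U-rich cytoplasmic polyadenylation element in the 3′ end, so the ends of the members' mRNAs were searched for such letters. The search covered the last 150 bases of the longest complete principal mRNA model, on the mRNA strand, for TTTTAT or TTTTAAT, and the last 40 bases for the cleavage hexamers AATAAA or ATTAAA. Of the 9 members with a complete model, 5 held TTTTAT or TTTTAAT, against 24.8% of 10939 tested protein-coding genes searched in the same way and 36% of the 297 among them with a mean of at least 500. Cnot7, Pan2 and Pan3 held both kinds of letters, as did 19.7% of the 10939 genes. The motifs are in capitals in the following 30-base stretches of the models.
Btg4: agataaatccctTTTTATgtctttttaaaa
Cnot7: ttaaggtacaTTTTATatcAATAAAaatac
Pan2: aAATAAAagtatTTTTATctcattagaaaa
Pan3: ttTTTTAATAAAgaattgcagaAATAAAct
In Pan3 the first hexamer overlaps TTTTAAT. Cnot1 also held TTTTAT, at 64 bases from its end. Cnot6, Cnot6l, Parn and Zfp36l2 held neither TTTTAT nor TTTTAAT in this window, and Cnot8 had no model with a complete end. A match is a description of the annotated letters and not a measured element.

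The values are abundances per gene that divide by transcript length, which adjusts for length when genes are compared. Whether other effects of length on the values remained was not tested. The values carry no unit of mass and no read number. The kit primed on poly(A) and tail length was not measured, so whether tails affected the levels of genes relative to each other was not tested. Sums of the values per library ran from 956209 to 1059424, and 11529 to 11873 genes per library reached 1. Depth could be judged only from the steps between low values of genes with a single transcript, where 1 read on a transcript of 1 kb was worth 0.0391 to 0.0484. All 10 oocyte and zygote markers examined were present, among them Dppa3 at 13565 to 17885. Of the 12 cumulus cell markers, 9 stayed under 1 in every library. The replicates differed most in CBR+SAM, where the log2 difference between them had an SD of 0.54 over the 5939 tested genes of mean 10 or more, against 0.34 in CBR and 0.35 in DMSO. The summed cumulus markers, nearly all Serpine2, were 618.4 and 239.7 with CBR+SAM, 583.6 and 583.6 with CBR, and 535.4 and 512.5 with DMSO. Serpine2 alone was low in CBR+SAM replicate 2, at 224.5, while the other tested cumulus markers there, Cyp19a1 at 11.9 and Kitl at 2.54, lay within the range of the other libraries. Summed sperm markers lay between 40.77 and 48.65, oviduct markers between 2.892 and 4.764, and blood cell markers between 0.847 and 2.31. The sperm sum was nearly all Odf2, at 24.4 to 32.5, and Prm2, at 9.86 to 14.7. These 2 were the only tested genes of the 8 sperm markers, and Tnp1 and Smcp were 0 in every library. The embryos of a library were measured in bulk, so fewer embryos with a transcript and less of it per embryo cannot be told apart.

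The members spanned more than 3 orders of magnitude in abundance, and their order was nearly the same in every library. Btg4 stood far above the rest, with a mean of 5978 over the 6 libraries and rank 15 of the 12249 tested genes. Cnot7 followed at 1085 and Cnot6l at 778.6, above 98.85% and 98.33% of tested genes. Pan3 averaged 137.1, Cnot8 53.9, Cnot1 47.26, Cnot6 21.24, Pan2 17.37 and Parn 10.93. Zfp36l2 was the lowest at 2.309, above 21.67% of tested genes. The neighbours Cnot7 and Cnot6l, Cnot8 and Cnot1, and Cnot6 and Pan2 had overlapping ranges over the 6 libraries, and no other neighbours in this order did.

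**Figure D1:**
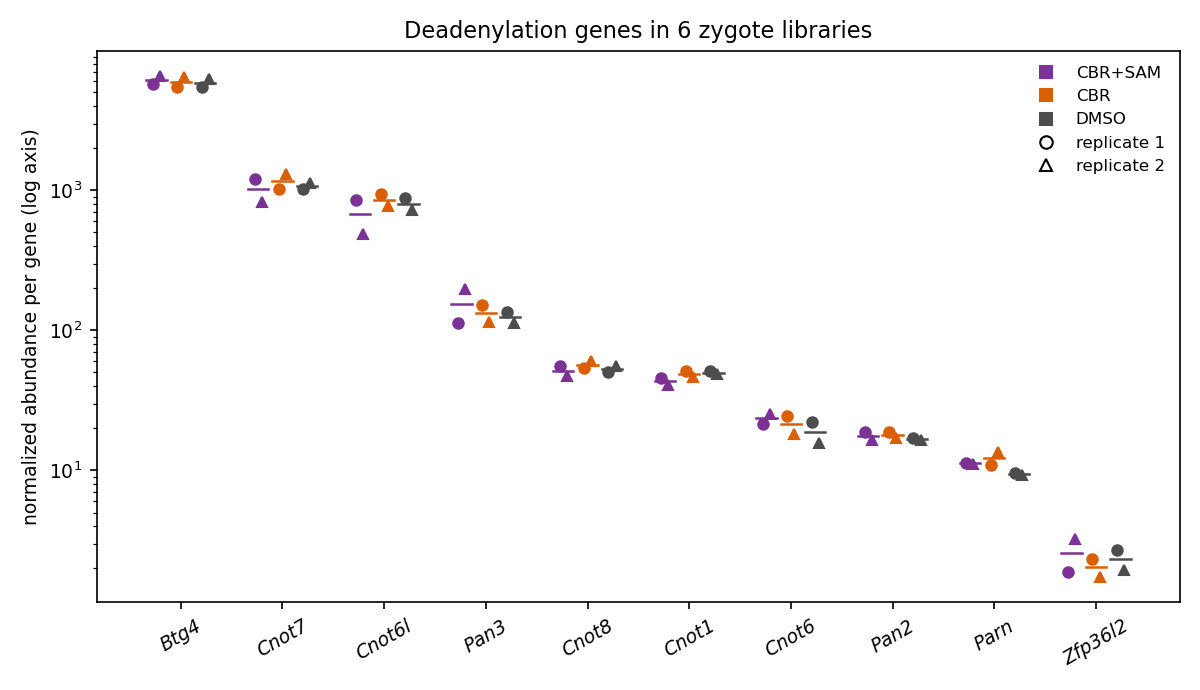
Normalized abundance of the 10 genes (log axis) in each library, with circles for replicate 1, triangles for replicate 2 and bars for group means (n = 2). The order from Btg4, at 5437 to 6573, down to Zfp36l2, at 1.73 to 3.24, is wider than any difference between groups.

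Btg4 (ENSMUSG00000032056, chromosome 9, 51060901 to 51119875 on the plus strand of mm10) is the adaptor that couples maternal mRNA to the CNOT7 and CNOT8 nucleases. Its abundance was 5758 and 6573 in CBR+SAM libraries, 5475 and 6400 in CBR libraries, and 5437 and 6222 in DMSO libraries. The 3 groups overlapped, and the second replicate was the higher one in each. The group means were 6166 ± 576.1, 5937 ± 654.4 and 5830 ± 555.2 in the same order (SD, n = 2 each). None of the words of 31 bases in its 5 annotated transcripts occurred in another gene's transcripts. Alone it made up 70.55% to 79.84% of the summed abundance of the 10 genes.

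Differences of Btg4 between groups were small beside their error. The log2 difference, taken on log2(value + 1), was 0.06 for CBR+SAM against CBR (95% interval -0.33 to 0.44), 0.08 for CBR+SAM against DMSO (-0.30 to 0.46) and 0.03 for CBR against DMSO (-0.36 to 0.41). These intervals correspond to folds between 0.782 and 1.38 at their widest. Adjusted p-values from limma, over all 12249 genes, were 0.994, 1 and 1 in that order.

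CNOT7, with CNOT8, is the CCR4-NOT nuclease that BTG4 binds directly. Cnot7 (ENSMUSG00000031601, chromosome 8, 40492540 to 40515847 on the minus strand) had an abundance of 1214 and 831.9 in CBR+SAM libraries, 1024 and 1298 in CBR libraries, and 1016 and 1126 in DMSO libraries. Both the highest and the lowest of the 4 libraries of inhibitor-treated embryos thus lay outside the DMSO pair, and the groups overlapped. Its log2 difference for CBR+SAM was -0.20 relative to CBR and -0.09 relative to DMSO, and for CBR it was 0.11 relative to DMSO, with SE 0.22 throughout. Without CBR+SAM replicate 2 the first 2 of these were 0.08 and 0.18. Cnot8 (ENSMUSG00000020515, chromosome 11, 58104153 to 58118594, plus strand) stayed between 46.97 and 59.97. Of its words of 31 bases 11.7% also occurred in the predicted gene Gm18860, listed at 3.497 to 7.541, so reads of these words could belong to either record and the level of Cnot8 is uncertain. Its log2 differences were -0.15, -0.05 and 0.09 in the comparisons taken in the same order (SE 0.16 each).

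Cnot6l (ENSMUSG00000034724, chromosome 5, 96070333 to 96164171, minus strand) encodes the nuclease of the second pair that mouse oocytes are known to rely on. It stood at 856.7 and 487.6 in CBR+SAM libraries, 947.9 and 771.3 in CBR libraries, and 882.3 and 725.6 in DMSO libraries. The lowest value, 487.6, was that of CBR+SAM replicate 2, and replicate 1 was higher than replicate 2 in all groups. For CBR+SAM the log2 difference was -0.40 from CBR (95% interval -1.04 to 0.24) and -0.31 from DMSO (-0.95 to 0.33), and for CBR it was 0.10 from DMSO (-0.54 to 0.74). Adjusted p-values were 0.988, 1 and 1 by limma. Without CBR+SAM replicate 2 the first 2 differences were 0.00 and 0.10. That library also had the low value of Serpine2, and a link between these values was not tested. No word of 31 bases of Cnot6l was shared with another gene.

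Its paralog Cnot6 (ENSMUSG00000020362, chromosome 11, 49671503 to 49712723, minus strand) stood at 21.5 and 25.4 in CBR+SAM libraries, 24.4 and 18.2 in CBR libraries, and 22.2 and 15.6 in DMSO libraries. The groups overlapped, and the DMSO pair alone differed by more than the group means did. Its log2 difference of 0.31 in CBR+SAM against DMSO (SE 0.23, adjusted p = 1 by limma) was the largest positive value among the 10 genes in that comparison, but it was 0.20 without CBR+SAM replicate 2, 0.07 without DMSO replicate 2 and 0.55 without DMSO replicate 1. The other comparisons gave 0.14 for CBR+SAM relative to CBR and 0.17 for CBR relative to DMSO.

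Within each nuclease pair one paralog supplied nearly all of the abundance. Cnot7 made up 94.66% to 95.6% of the Cnot7 and Cnot8 sum, and Cnot6l 95.04% to 97.89% of the Cnot6l and Cnot6 sum. The ratio of Cnot7 to Cnot8 was 21.72 and 17.71 with CBR+SAM, 18.97 and 21.64 with CBR, and 20.09 and 20.1 with DMSO. The ratio of Cnot6l to Cnot6 was 39.79 and 19.18 with CBR+SAM, 38.77 and 42.34 with CBR, and 39.75 and 46.43 with DMSO. Apart from CBR+SAM replicate 2 this ratio stayed between 38.77 and 46.43. Across the pairs, Cnot7 exceeded Cnot6l in every library, by 1.081-fold to 1.706-fold. For a single ratio the smallest two-sided p that an exact permutation of 2 libraries against 2 can give is 0.333, so no test is given.

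**Figure D2:**
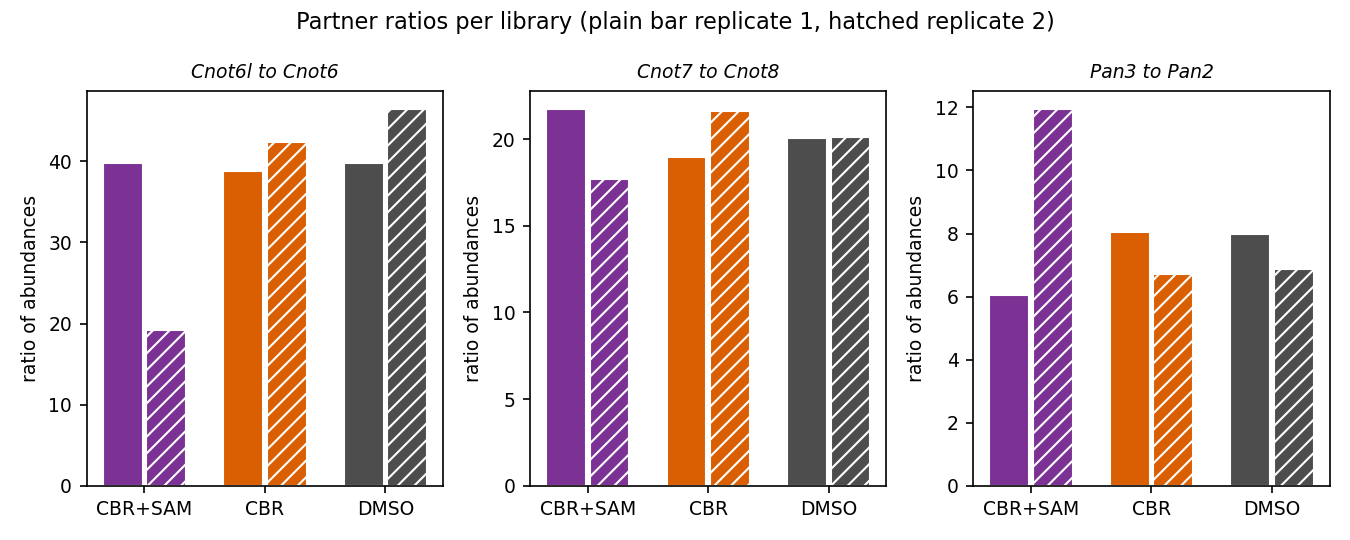
Ratio of abundances in each library for 3 pairs of partner genes, plain bars for replicate 1 and hatched bars for replicate 2 (linear axis from 0). CBR+SAM replicate 2 has the lowest ratio of Cnot6l to Cnot6, 19.18, and the highest of Pan3 to Pan2, 11.94.

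Cnot1 (ENSMUSG00000036550, chromosome 8, 95719451 to 95807464, minus strand), the scaffold that holds the nucleases, was far less abundant than the nucleases' leading paralogs. Its abundance was 46.0 and 40.6 in CBR+SAM libraries, 51.0 and 46.1 in CBR libraries, and 51.5 and 48.4 in DMSO libraries. Both CBR+SAM libraries lay below all 4 others, the lowest CBR value exceeding the higher CBR+SAM value by a small margin. Of all tested genes, 27.5% had no overlap between CBR+SAM and CBR libraries, and 24.5% had none between CBR+SAM and DMSO libraries. The share with CBR+SAM below both other groups was not counted. For CBR+SAM the log2 difference was -0.16 from CBR and -0.20 from DMSO (SE 0.15 each), with adjusted p-values of 0.988 and 1 by limma, and for CBR it was -0.04 from DMSO. Without CBR+SAM replicate 2 the first pair of values was -0.07 and -0.12, and without CBR+SAM replicate 1 it was -0.25 and -0.29. Of its words of 31 bases 6.32% occurred in other genes, most of them in the predicted gene Gm6158, which was listed at 4.56 and 8.15 with CBR+SAM, 3.17 and 2.77 with CBR, and 4.80 and 2.99 with DMSO. Added together, the 2 records gave 50.6 and 48.7 with CBR+SAM, 54.2 and 48.9 with CBR, and 56.3 and 51.4 with DMSO. CBR+SAM and CBR overlapped in this sum, while CBR+SAM and DMSO did not.

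PAN3 recruits the PAN2 nuclease to poly(A)-binding protein on the tail. Pan3 (ENSMUSG00000029647, chromosome 5, 147430161 to 147548502, plus strand) stood at 113 and 196.1 in CBR+SAM libraries, 151.7 and 113.9 in CBR libraries, and 135.4 and 112.2 in DMSO libraries. CBR+SAM replicate 2 was the highest library and CBR+SAM replicate 1 among the lowest, so the group enclosed the CBR pair and overlapped the DMSO pair. For CBR+SAM the log2 difference was 0.18 from CBR and 0.27 from DMSO (SE 0.28 each), and leaving out CBR+SAM replicate 2 made these -0.21 and -0.12. For CBR it was 0.09 from DMSO. Pan2 (ENSMUSG00000005682, chromosome 10, 128303335 to 128321358, plus strand) was the steadiest of the 10 genes, its highest library being 1.155 times its lowest. It lay at 18.7 and 16.4 with CBR+SAM, 18.9 and 17.0 with CBR, and 16.9 and 16.3 with DMSO, and its log2 difference was 0.10 in CBR against DMSO (SE 0.16). Pan3 exceeded Pan2 by 6.064-fold and 11.94-fold with CBR+SAM, 8.037-fold and 6.707-fold with CBR, and 7.992-fold and 6.862-fold with DMSO.

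Parn (ENSMUSG00000022685, chromosome 16, 13537960 to 13668170, minus strand) had the largest difference among the 10 genes in CBR against DMSO. Its abundance was 11.3 and 11.1 in CBR+SAM libraries, 10.9 and 13.4 in CBR libraries, and 9.60 and 9.25 in DMSO libraries. Every library with the inhibitor lay above both DMSO libraries. Over all tested genes, groups did not overlap for 33% in CBR against DMSO and 24.5% in CBR+SAM against DMSO. The share with both separations was not counted. The log2 difference was 0.33 in CBR against DMSO (95% interval -0.08 to 0.74, unadjusted p = 0.0968, adjusted p = 1 by limma) and 0.23 in CBR+SAM against DMSO (-0.18 to 0.64, adjusted p = 1). The first was 0.19 without CBR replicate 2 and 0.47 without CBR replicate 1. These comparisons share the DMSO libraries. CBR+SAM against CBR gave -0.11 (SE 0.17), in which the CBR pair enclosed the CBR+SAM pair.

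Zfp36l2 (ENSMUSG00000045817, chromosome 17, 84183931 to 84187947, minus strand), the AU-rich element binding protein, was the least abundant of the 10 genes. It stood at 1.89 and 3.24 in CBR+SAM libraries, 2.34 and 1.73 in CBR libraries, and 2.69 and 1.96 in DMSO libraries. Its single transcript of 3530 bases allowed an estimate of the reads behind these values, namely 155 and 272 with CBR+SAM, 173 and 150 with CBR, and 230 and 137 with DMSO. Counting error alone would be 6.06% to 8.55% at these numbers, if each read stood for a separate molecule, which PCR copies do not. For CBR+SAM the log2 difference was 0.21 from CBR and 0.08 from DMSO, and for CBR it was -0.13 from DMSO (SE 0.27 each), on a scale that understates the change of low genes. CBR+SAM replicate 2 was the highest library, and without it the difference from CBR was -0.06.

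Taking the 10 genes as a list, none passed the adjusted threshold of 0.05 by limma in any comparison, and none reached an unadjusted p under 0.05. Over all 12249 genes the adjusted call was made for 0% in CBR against DMSO and for 0.00816% in each of the 2 comparisons of CBR+SAM, the same single predicted gene Gm16550 in both. No gene was called in either with a pseudocount of 0.1, with no filter on low values or among genes of mean 10 or more, nor against DMSO with only the 4 libraries compared. Unadjusted p-values under 0.05 were reached by 3.09% of genes in CBR+SAM against CBR, 2.14% in CBR+SAM against DMSO and 2.12% in CBR against DMSO. In CBR+SAM against CBR 4 members had positive and 6 negative differences, with a median log2 difference of -0.07. Over all genes tested 52.4% were positive there and the median was 0.01. In CBR+SAM against DMSO 6 were positive and the median was 0.08, against 49% and -0.0048 over all genes. In CBR against DMSO 8 were positive and the median was 0.10, against 48.3% and -0.01 over all genes. Btg4 turned negative here when each library was scaled to the same sum, as Btg4 and Pan2 also did in CBR+SAM against DMSO. The limits of these statements are the intervals: with the exception of Cnot6l in CBR+SAM against CBR, whose interval reached -1.04, all intervals of all 10 genes lay within a log2 difference of 1. That bound is on log2(value + 1), which understates the change of low genes. For Zfp36l2, with a mean of 2.309, it does not hold for the abundance itself.

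**Figure D3:**
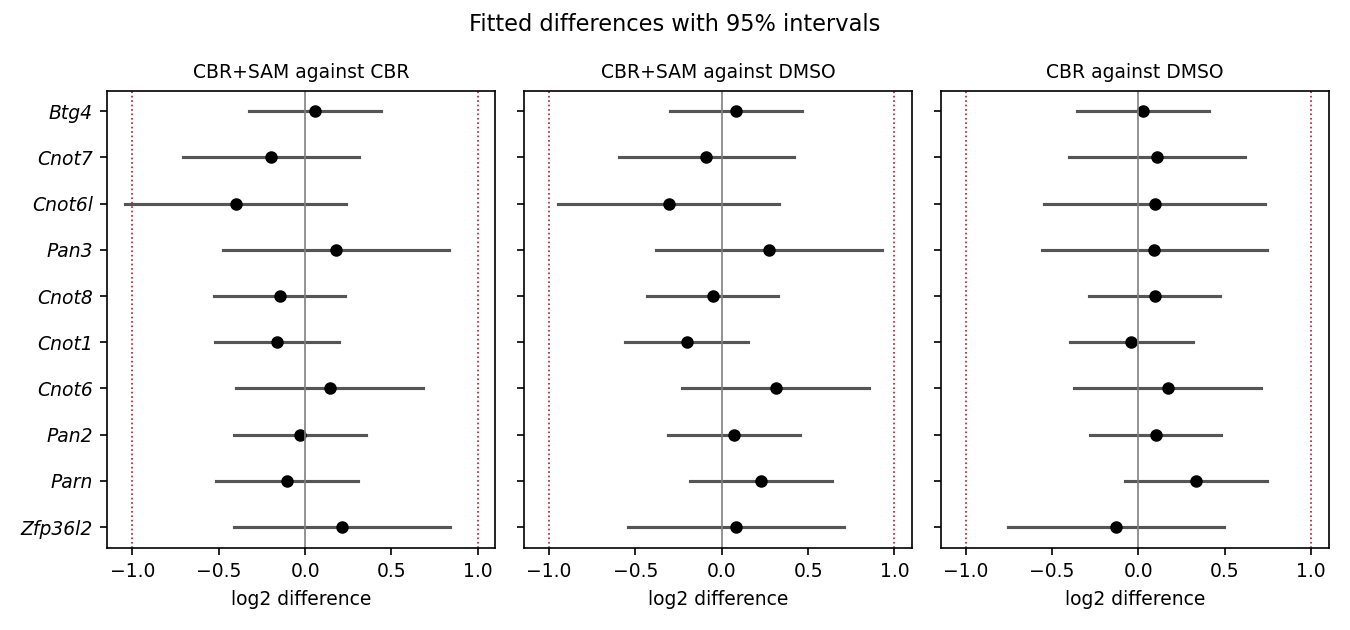
Fitted log2 differences (points) with 95% intervals (lines) for the 10 genes in the 3 comparisons, from limma on log2(value + 1). All intervals cross 0, and the interval of Cnot6l in CBR+SAM against CBR, from -1.04 to 0.24, is the one that passes a dotted line at a log2 difference of 1 or -1. The scale understates the change of Zfp36l2, the least abundant gene.

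Groups that did not overlap were seen for few members. In CBR+SAM against CBR this was Cnot1, lower in both libraries, 1 of 10, against 27.5% of all tested genes. CBR+SAM against DMSO separated Cnot1, lower, and Parn, higher, 2 of 10, against 24.5%. CBR against DMSO separated Pan2 and Parn, both higher, 2 of 10, against 33%. None of these shares exceeded that of all genes.

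The largest difference between replicates of a group, 0.81 in size for Cnot6l, exceeded the largest between groups, 0.40 in size for the same gene. The first compares single libraries and the second means of 2 libraries, which vary less, so their sizes are not like for like. Replicate 2 was higher than replicate 1 in all groups for Btg4, and lower in all groups for Cnot6l, Cnot1 and Pan2, together 40% of the members. The same held for 34.3% of the 5939 tested genes whose mean was 10 or more. For Btg4 the log2 difference of replicate 2 from replicate 1 was 0.19 with CBR+SAM, 0.23 with CBR and 0.19 with DMSO. For Cnot6l it was -0.81, -0.30 and -0.28 in the same order. Cnot7, Cnot8, Pan3, Cnot6 and Zfp36l2 had one direction in CBR and DMSO and the opposite one in CBR+SAM. Pan3, for example, differed by 0.79 with CBR+SAM, -0.41 with CBR and -0.27 with DMSO. In CBR+SAM 7.06% of the 5939 genes differed between replicates at least as much as Cnot6l, and 7.78% at least as much as Pan3.

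**Figure D4:**
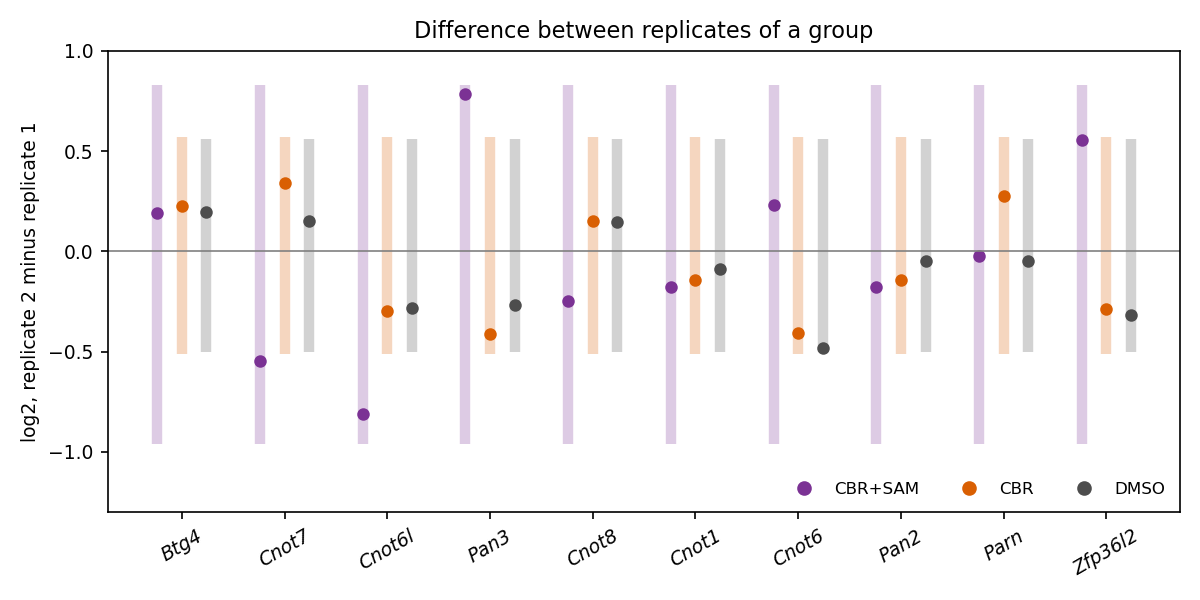
Log2 difference of replicate 2 from replicate 1 within each group for the 10 genes (points), over pale bars that span the central 95% of the 5939 genes of mean 10 or more. All points lie inside their bars, and the CBR+SAM bar, from -0.96 to 0.83, is the widest. Zfp36l2, with a mean of 2.309, is not among the genes that made the bars.

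The genes most like Btg4 across the 6 libraries were sought among the 5939 tested genes of mean 10 or more, by Pearson's r of log2 values and leaving out predicted genes. Mterf1a, a relative of the mitochondrial transcription termination factor, came first with r = 0.998, followed by the zinc finger gene Bnc2 with 0.996 and Rttn, which encodes a centriole protein, with 0.992. Mterf1a stood at 12.8 and 24.5 with CBR+SAM, 10.5 and 20.7 with CBR, and 9.71 and 18.4 with DMSO. Bnc2 stood at 28.4 and 34.6, 25.8 and 33.2, and 25.4 and 32.6 in the same groups. All 3 were, like Btg4, higher in the second replicate of each group, and each r rests on 6 points and was picked from 5939.

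The remaining CCR4-NOT subunits were tested in full, 6 of 6, and none passed the threshold by limma in any comparison. In this and the following pathway lists no gene reached an unadjusted p under 0.05 either, apart from 1 gene per comparison in the decapping list. Cnot3, a subunit of the NOT module, was the most abundant of them, at 226.3 and 226.9 with CBR+SAM, 275.6 and 250.9 with CBR, and 220.8 and 210.3 with DMSO. The 2 CBR libraries were the highest. The log2 difference was 0.29 in CBR against DMSO (95% interval -0.03 to 0.60) and -0.21 in CBR+SAM against CBR (-0.53 to 0.10). These comparisons share the CBR libraries, and their groups did not overlap for 33% and 27.5% of all tested genes. Cnot9, which contacts RNA-binding adaptors, stood at 38.0 and 23.4, 47.6 and 37.3, and 38.6 and 31.3 in the order CBR+SAM, CBR and DMSO. Cnot4, a ubiquitin ligase that joins the complex loosely, stood at 109.3 and 82.4, 116.8 and 112.0, and 110.6 and 101.9 in that order. Over the 6 subunits 2 differences were positive in CBR+SAM against CBR, 2 in CBR+SAM against DMSO and 3 in CBR against DMSO. The shares over all tested genes were 52.4%, 49% and 48.3% in that order.

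Of the 6 genes listed as other deadenylases or relatives of deadenylases, 5 were tested, and none passed. The highest were Angel2, with a mean of 277.7, and Noct, a circadian relative of the CCR4 nucleases, with a mean of 62.0. Noct was at 52.6 and 93.9 with CBR+SAM, 52.4 and 54.7 with CBR, and 58.3 and 59.98 with DMSO, so that 1 library of CBR+SAM, replicate 2, stood above the rest. Pnldc1, a trimmer of piRNA, averaged 3.16.

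Among 23 genes for relatives of BTG4 and for other proteins that bring deadenylases to mRNA, 20 were tested and none passed. Ythdf3, a reader of m6A, had the highest mean at 73.0, and Celf1, which binds GU-rich elements, was at 47.5 and 22.7 with CBR+SAM, 37.7 and 43.0 with CBR, and 37.9 and 34.6 with DMSO. Tnrc6b, the microRNA effector, was at 29.3 and 23.2, 34.5 and 26.8, and 25.1 and 23.2 in that order, and Pum2 at 20.4 and 31.6, 22.9 and 20.7, and 21.6 and 19.7. Samd4b stayed between 2.501 and 4.295. Of the 20 genes 13 had positive differences in CBR against DMSO, with a median of 0.03, against 48.3% and -0.0074 over all tested genes.

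The poly(A)-binding proteins and their regulators, which deadenylases must displace or bind, gave 8 tested genes of 10, and none passed. Paip1 averaged 479.3. Paip2, which keeps poly(A)-binding protein off the tail, was at 287.9 and 303.1 with CBR+SAM, 255.8 and 267.9 with CBR, and 327.6 and 307.8 with DMSO, a log2 difference of -0.28 in CBR against DMSO (95% interval -0.59 to 0.03). The 2 CBR libraries were the lowest, and the 3 groups did not overlap. Over all tested genes, groups did not overlap for 27.5% in CBR+SAM against CBR, 24.5% in CBR+SAM against DMSO and 33% in CBR against DMSO. The share with all 3 groups apart was not counted. Paip2b, a relative of Paip2, stood at 201.8 and 147.6, 227.4 and 212.3, and 196.1 and 206.2 in the order CBR+SAM, CBR and DMSO. Pabpn1, the nuclear poly(A)-binding protein, stood at 143.0 and 176.1, 163.2 and 140.5, and 130.6 and 130.1.

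Decapping and 5′-to-3′ decay follow deadenylation, and 19 of 20 genes of this list were tested. None passed the adjusted threshold. Lsm6, a subunit of the LSM ring that binds shortened tails, had the smallest unadjusted p of the list in both comparisons of CBR. Its abundance was 132.8 and 134.9 in CBR+SAM libraries, 104.4 and 105.5 in CBR libraries, and 138.4 and 132.9 in DMSO libraries. The 2 CBR libraries were about equal and below all others. The log2 difference was 0.35 in CBR+SAM against CBR (95% interval 0.04 to 0.66, adjusted p = 0.988 by limma) and -0.37 in CBR against DMSO (-0.68 to -0.06, adjusted p = 1). These comparisons share the CBR libraries, and their groups did not overlap for 27.5% and 33% of all tested genes. Lsm3 was likewise lowest in the CBR libraries, whereas Lsm7 was not. Lsm3 was at 479.1 and 669.1, 409.4 and 433.6, and 470.2 and 472.1 in the order CBR+SAM, CBR and DMSO, and Lsm7 at 496.7 and 709.5, 481.0 and 497.5, and 473.6 and 427.5. Lsm4 was at 2.03 and 1.98, 3.27 and 2.46, and 2.77 and 6.19, a log2 difference of -0.79 in CBR+SAM against DMSO (adjusted p = 1 by limma), with its highest value in DMSO replicate 2.

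Tail uridylation and the exosome, which degrades from the 3′ end, gave 19 tested genes of 20, and none passed. Exosc2, an exosome cap subunit, differed most between the replicates of CBR+SAM, at 143.2 and 322.3, against 199.0 and 255.0 with CBR and 201.8 and 232.1 with DMSO. Exosc8 averaged 184.5. Dis3, an exosome nuclease, was at 4.15 and 2.81 with CBR+SAM, 5.02 and 5.52 with CBR, and 5.37 and 4.30 with DMSO, and Wdr61 at 20.9 and 22.4, 27.0 and 22.5, and 18.4 and 22.6.

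Enzymes that act against deadenylation, by extending tails, were listed with the factors that bind polyadenylation elements, and 15 of 18 were tested with none past the threshold. Tent2, the cytoplasmic poly(A) polymerase, was at 73.6 and 95.1 with CBR+SAM, 87.2 and 76.1 with CBR, and 75.6 and 63.8 with DMSO. Tent5c averaged 65.9. Cpsf1, a subunit of the cleavage and polyadenylation factor, was at 2.68 and 5.48, 2.10 and 1.99, and 1.86 and 2.38 in that order, and its log2 difference of 0.68 in CBR+SAM against CBR had an interval of -0.01 to 1.37.

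All 20 oocyte mRNAs taken as commonly followed examples of maternal transcripts were tested, and none passed the adjusted threshold or an unadjusted p under 0.05 by limma. In CBR+SAM against CBR 8 were positive with a median log2 difference of -0.02, in CBR+SAM against DMSO 5 were positive with a median of -0.09, and in CBR against DMSO 5 were positive with a median of -0.06. Over all tested genes 52.4%, 49% and 48.3% were positive in that order, with medians of 0.0142, -0.0048 and -0.0074. Oosp1 and Oog1 were the most abundant, with means of 3931 and 3232. Nlrp14 stood at 379.5 and 496.4 with CBR+SAM, 308.2 and 413.3 with CBR, and 356.4 and 675.3 with DMSO, and Padi6, of the cytoplasmic lattices, at 103.9 and 96.5, 99.1 and 109.7, and 106.2 and 143.7. H1foo, the oocyte linker histone, was at 1014 and 464.1, 1327 and 776.4, and 1036 and 559.6, so that its replicates differed more than its group means. Abundance at 1 time does not measure how fast these mRNAs were removed.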

How the data were processed

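RNA of 6 libraries was measured, and per the labels' protocols cDNA came from the SMART-Seq v4 kit and libraries from Nextera XT. The kit primes on poly(A), so values count tailed mRNA, and tail length was not measured. The authors deposited one signal value per gene and library, a length-normalized abundance. The tools listed in the submitters' processing notes are DESeq2, kallisto and fastp, and the build is mm10, without versions or roles. Column sums differed between libraries, and whether a further scaling was applied is not given in the sources used here.

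Identifiers were matched to symbols for 35768 of 36065 genes, and coordinates and mRNA models came from GENCODE M21 (mm10). Of values up to 10 reads in single-transcript genes over 1500 bases, 74.6% to 79.5% lay within 0.1 of a whole number (20% for a fixed step by chance, with an assumed fragment of 150 bases and steps searched from 4 to 400). This left no table of whole reads, so no count test was run. The test was limma 3.58.1 in R 4.3.3 on log2(value + 1), with a mean-variance trend, the 3 groups fitted together, 3 residual degrees of freedom and Benjamini-Hochberg adjustment over 12249 genes, threshold 0.05. The p-values measure the spread between libraries labelled as biological replicates. Members and lists were chosen with earlier results of these data known. Named list genes are the 2 of highest mean and, per comparison, the smallest p. Word sharing was computed on transcripts of all genes with words of 31 bases on both strands. Figures and sequence steps used Python 3.11.15. Alternatives were other pseudocounts, filters, scalings, a replicate block, fits of 4 libraries, no trend, and leaving out each library.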

Additional observations from a re-analysis of the deposited data

How the results depend on the processing

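No member was called under any alternative. In fits that kept all libraries of a comparison, 234 of 237 values kept their direction and their side of the threshold, and the smallest adjusted p was 0.903. Scaling each library to the same sum reversed 3, Btg4 at -0.017 in CBR against DMSO and -0.0026 in CBR+SAM against DMSO, and Pan2 at -0.0087 in the last. That scaling moved libraries by -0.083 to 0.065 on the log2 scale, and median ratios by -0.061 to 0.0069. Leaving out 1 library reversed 34 of 180 values, all uncalled, with a smallest adjusted p of 0.129. The ranges for genes with a reversal follow. CBR+SAM against CBR gave Btg4 -0.057 to 0.17, Cnot6 -0.061 to 0.34, Cnot6l -0.81 to 0.0028, Cnot7 -0.47 to 0.075, Pan2 -0.12 to 0.058, Pan3 -0.21 to 0.57, Parn -0.24 to 0.033 and Zfp36l2 -0.064 to 0.49. CBR+SAM against DMSO gave Btg4 -0.016 to 0.18, Cnot6l -0.71 to 0.10, Cnot7 -0.36 to 0.18, Cnot8 -0.18 to 0.070, Pan2 -0.018 to 0.16, Pan3 -0.12 to 0.67 and Zfp36l2 -0.19 to 0.36. CBR against DMSO gave Btg4 -0.087 to 0.14, Cnot1 -0.11 to 0.032, Cnot6 -0.069 to 0.41, Cnot6l -0.053 to 0.24, Cnot7 -0.062 to 0.28, Pan3 -0.11 to 0.30 and Zfp36l2 -0.29 to 0.031. Genes called over the whole table were 0 for both comparisons of CBR+SAM, in place of 1, with a pseudocount of 0.1, with no filter, and with a mean of at least 10, where Zfp36l2 was not tested. With only the 4 libraries compared they were 0 in CBR+SAM against DMSO and 1 in CBR against DMSO, in place of 0. Leaving out 1 library gave 0 to 9 in CBR+SAM against CBR, 0 to 3 in CBR+SAM against DMSO and 0 to 2 in CBR against DMSO. Without CBR+SAM replicate 1, unadjusted p-values under 0.05 were reached by 2369 genes in CBR+SAM against CBR, 3 of them members, in place of 378. In CBR+SAM against DMSO these were 2044, with 2 members, in place of 262. The cause was not tested. A group left with 1 library was assumed to vary like the others.

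With the replicate number as a block, genes called were 1, 1 and 0 in CBR+SAM against CBR, CBR+SAM against DMSO and CBR against DMSO, as without it, and no member was called. Genes with an unadjusted p under 0.05 were 554, 340 and 357 in that order. Deviations of same-numbered libraries correlated at 0.12, 0.258 and 0.599 over 5939 genes, which with 2 pairs does not show a pairing.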

Other observations

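Pabpn1l, the poly(A)-binding partner of BTG4 in mouse eggs, and Dazl, an oocyte RNA-binding protein, were chosen after their values were seen. Pabpn1l stood at 158.4 and 84.5 in CBR+SAM libraries, 131.2 and 98.6 in CBR libraries, and 168.6 and 96.1 in DMSO libraries. Dazl stood at 938.6 and 432.0, 969.1 and 528.3, and 932.7 and 532.8 in the same groups. In both genes, as in Cnot6l and H1foo, the first replicate of every group was the higher one, while the groups overlapped. The same held for 1006 of the 5939 tested genes of mean 10 or more, and the opposite for 1029. The labels do not say what, if anything, libraries of the same replicate number share.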
